A study of Mus musculus with 12 samples.

Results

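The genes described here were Nrg4, the 4 receptors of the epidermal growth factor (EGF) receptor family (Egfr, Erbb2, Erbb3 and Erbb4) and 5 further ligands (Egf, Hbegf, Btc, Areg and Tgfa), measured in mouse liver. Members were listed by symbol and read from the probe sets that the platform annotation pairs with that gene alone. This gave 9 probe sets, 1 for each of 9 genes, among 34760 on the array. Areg was not analysed here. A further probe set shared by Erbb2 and Sympk was left out. Nrg4 was chosen by its measured log2 levels, already known to differ between IVF and natural mating in WT liver, so that difference is given below as a description, with no test.

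The study asked how in vitro fertilization (IVF) alters gene expression in the liver of the offspring, and whether the stress-responsive transcription factor ATF7 takes part. Livers came from 4-week-old males by the labels, while the methods give a younger age. There were 4 groups of 3 mice: WT by natural mating, WT by IVF, Atf7-/- by natural mating and Atf7-/- by IVF. All were on the C57BL6/JJmsSlc background, and Atf7-/- mice lacked ATF7 in the whole body, not in the liver alone. IVF used eggs from superovulated females and HTF medium, and the cleaved embryos were transferred into pseudopregnant ICR recipients. IVF pups were therefore carried by ICR females and natural-mating pups by females of their own genotype, so that fertilization in vitro, embryo transfer and the carrying female cannot be told apart in any IVF comparison. The methods took livers from offspring of different mothers or recipients. Each liver was hybridised to its own Affymetrix Mouse Gene 1.0 ST array, and every level below is a log2 RMA value, in which 1 unit is a doubling. Levels of different probe sets are not compared with each other, because probe brightness differs.

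The 4 ErbB receptors are membrane tyrosine kinases that pair with each other when a ligand binds. EGFR binds EGF, TGF-alpha and amphiregulin, HB-EGF and betacellulin bind EGFR and ErbB4, and neuregulins bind ErbB3 and ErbB4, with NRG4 acting through ErbB4. ErbB2 has no known ligand of its own and serves as the partner, and ErbB3 has little kinase activity and signals through its partners. In adult liver EGFR is abundant on hepatocytes and serves growth and regeneration, while NRG4 is best known as a factor released by brown fat that acts on hepatocytes to restrain lipogenesis.

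RefSeq promoter sequence on build GRCm38.p6 was read for the members that the table holds, 8 of 10 genes in 9 windows, each running from 250 bases before to 50 bases after a transcript start. The promoter of Nrg4 is shown because Nrg4 was the member with the clearest difference, and a short stretch of Areg because it holds the only cAMP response element among these windows, the site that factors of the ATF family bind. Capitals mark a match to AGGTCA, the hexamer recognised by many nuclear receptors, read here on the opposite strand in Nrg4, and the cAMP response element in Areg. The Nrg4 stretch lies at chr9:55283655-55283875 on the minus strand and the Areg stretch at chr5:91139522-91139561 on the plus strand.
Nrg4: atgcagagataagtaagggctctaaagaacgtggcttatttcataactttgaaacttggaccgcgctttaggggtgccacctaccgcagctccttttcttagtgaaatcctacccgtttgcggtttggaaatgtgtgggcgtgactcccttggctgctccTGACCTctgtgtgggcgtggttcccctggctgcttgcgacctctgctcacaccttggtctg
Areg: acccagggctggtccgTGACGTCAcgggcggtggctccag
The cAMP response element TGACGTCA, searched on both strands, was found in 1 of the 9 member windows and in 1.79% of all 32851 windows. Neither the E-box CACGTG (7.15% of all windows) nor the D-box TTATGTAA or TTACGTAA (1.06%), through which clock factors act, was found in a member window. AGGTCA was found 2 times in the full Nrg4 window and in no other member window. That motif was looked for after the Nrg4 sequence had been read, and 16.3% of all windows hold it at least 1 time and 1.81% at least 2 times. These matches are letters in a window and not measured binding.

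A probe set for Atf7 separated the genotypes in every array. It read from 7.56 to 8.94 in the 6 WT livers and from 5.34 to 6.11 in the 6 Atf7-/- livers. The other Atf7 probe set read from 8.70 to 9.27 in WT and from 8.28 to 8.72 in Atf7-/-. Whether it lies in the altered part of the gene is not given in the sources used here. With IVF in WT the first probe set was called lower (log2 fold change -0.74, adjusted p = 0.0384) and the other was not (-0.26, adjusted p = 0.19). The paper reports no difference in Atf7 mRNA between IVF and control livers. Array medians lay between 6.22 and 6.34, and arrays of 1 group correlated at 0.980 to 0.990 over all probe sets. The hepatocyte marker list (7 genes measured) averaged between 13.04 and 13.20 in all 12 arrays. WT natural mating replicate 3 stood apart from its group in several members, and the members' values in the comparisons it enters are given with and without it.

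Nrg4 (probe set 10593776) was lower after IVF in both genotypes. In WT natural mating livers its level was 8.33, 8.70 and 7.56 (8.20 ± 0.58, SD, n = 3), and in WT IVF livers it was 6.11, 5.99 and 5.97 (6.02 ± 0.076). The ranges did not overlap, and the 3 IVF livers lay within 0.14 of each other while the natural mating livers were spread over 1.14. The log2 fold change was -2.17 (SE 0.27), a 4.51-fold lower level, which ranged from -2.49 to -1.92 when single arrays were left out. In Atf7-/- livers the level was 7.21, 7.38 and 7.65 by natural mating (7.41 ± 0.22) and 5.67, 5.19 and 5.97 by IVF (5.61 ± 0.39). Again the groups did not overlap. All 6 IVF values lay under the median of all probe set means, 6.27, where a low level and background are hard to separate. This comparison shares no array with the one on which Nrg4 was chosen and was tested: Nrg4 fell by 1.80 (SE 0.27, 95% interval -2.39 to -1.22), 3.49-fold, with an adjusted p of 0.00173. The SE came from the fit to all 4 groups, so the WT arrays enter it. With single WT natural mating arrays left out the adjusted p was 0.00048 to 0.00303. With each array left out in turn, the log2 fold change lay between -1.98 and -1.59 and the adjusted p between 0.00048 and 0.00915.

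The order of the Nrg4 group means was WT natural mating, Atf7-/- natural mating, WT IVF and Atf7-/- IVF. The first pair of neighbours overlapped: WT replicate 3, at 7.56, lay below Atf7-/- replicate 3, at 7.65. Atf7-/- minus WT was -0.78 (SE 0.27) by natural mating, and leaving out WT natural mating replicate 2 or 3 gave -0.53 or -1.10. The last pair did not overlap, but by a margin of only 0.0033 between the lowest WT IVF and the highest Atf7-/- IVF liver, and Atf7-/- minus WT was -0.41 (SE 0.27) by IVF, or -0.21 without Atf7-/- IVF replicate 2. These differences use the WT arrays on which Nrg4 was chosen and were not tested. The IVF effect in Atf7-/- minus that in WT was 0.37 (SE 0.38, 95% interval -0.46 to 1.20) with no test. With all arrays, that interval holds both a stronger and a weaker IVF effect in Atf7-/- than in WT. The value was 0.69 without WT natural mating replicate 3 and 0.12 without replicate 2, and no interval is given for these fits.

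**Figure D1:**
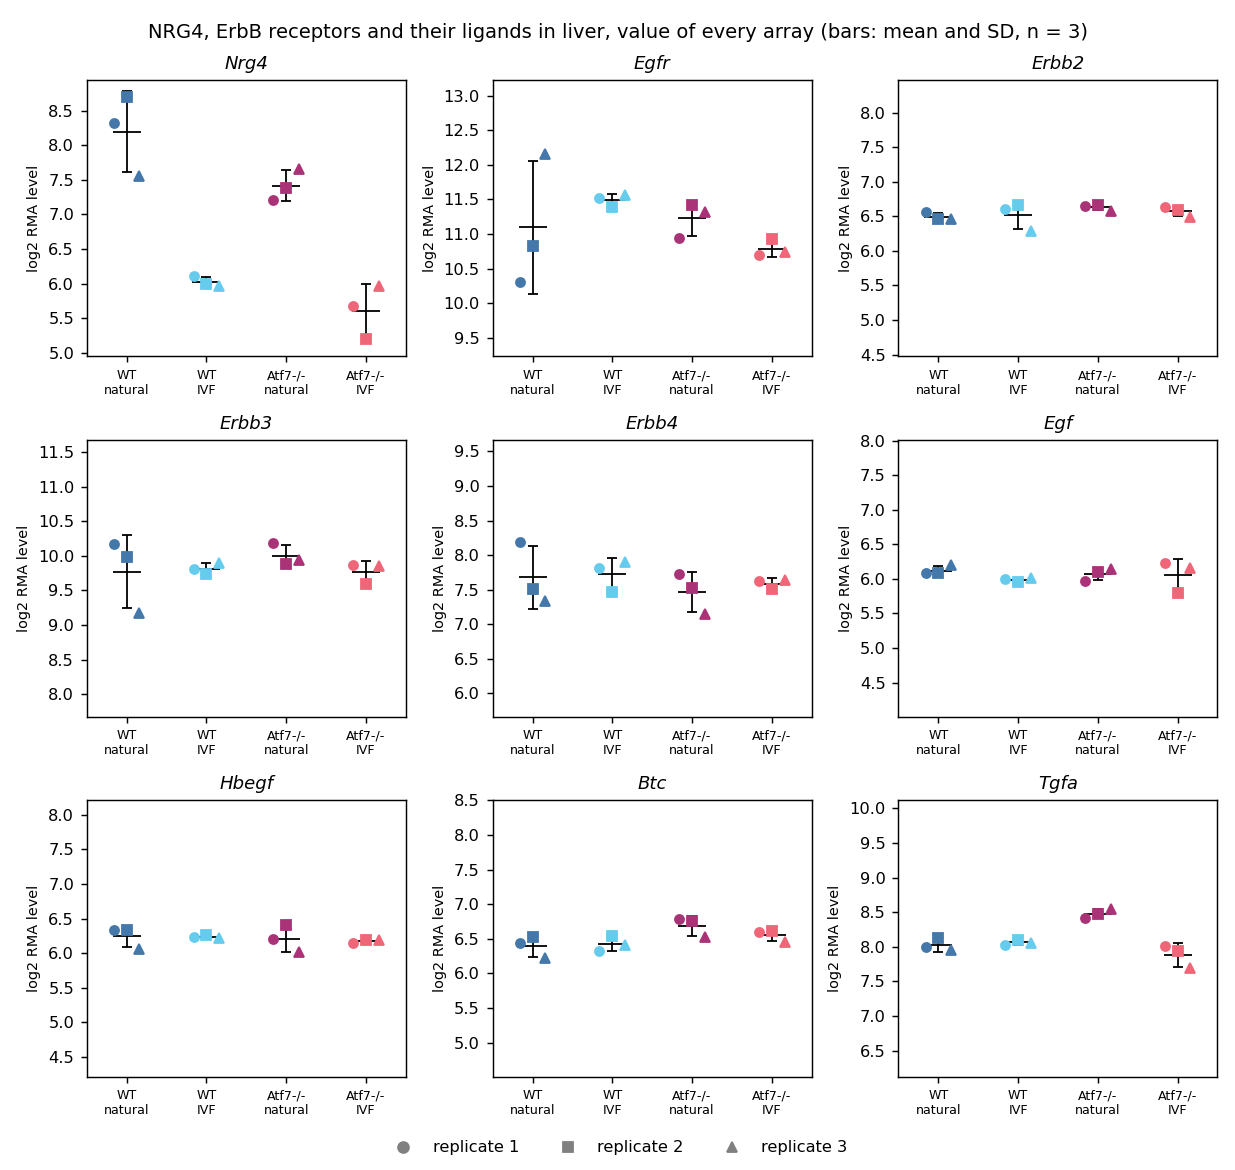
Log2 RMA level of the 9 measured genes in every liver, by group. Points are single arrays, with the replicate number as the symbol, bars give the mean and SD of 3 arrays, and every panel spans 4 log2 units. Nrg4 lies between 7.21 and 8.70 in the natural mating livers and between 5.19 and 6.11 in the IVF livers, while WT natural mating replicate 3 is the highest Egfr value at 12.16 and the lowest Erbb3 value at 9.17.

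Egfr (probe set 10374366), the receptor for most ligands described here, showed no called difference, and its WT natural mating livers were widely spread. Their levels were 10.30, 10.82 and 12.16 (11.09 ± 0.96), against 11.52, 11.40 and 11.56 in WT IVF (11.49 ± 0.085). Replicate 3 alone lay above every IVF liver and the other 2 lay below them. In Atf7-/- livers Egfr was 10.94, 11.41 and 11.33 by natural mating and 10.70, 10.92 and 10.74 by IVF. All 3 Atf7-/- IVF livers lay below the Atf7-/- natural mating livers, by as little as 0.014, and the difference of -0.44 (SE 0.36, 95% interval -1.22 to 0.35) was not called (adjusted p = 0.508). The order of the means was WT IVF, Atf7-/- natural mating, WT natural mating and Atf7-/- IVF. Neighbours in that order differed by less than the spread of WT natural mating. ATF7 loss gave 0.13 by natural mating (adjusted p = 0.869) and -0.71 by IVF (95% interval -1.49 to 0.078, adjusted p = 0.818), the latter with no overlap between the groups.

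The Egfr values that use WT natural mating depended on which of those livers was left out. IVF in WT was 0.40 with all arrays, 0.0013 without replicate 1, 0.26 without replicate 2 and 0.93 without replicate 3. ATF7 loss by natural mating was -0.27 without replicate 1, -0.0055 without replicate 2 and 0.66 without replicate 3, and it was called in the last of these alone (adjusted p = 0.0341).

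The other 3 receptors were close to level across the groups. Erbb2, the partner without a ligand, ranged from 6.29 to 6.66 over the 12 livers. Erbb3, the partner with weak kinase activity, ranged from 9.60 to 10.18 apart from WT natural mating replicate 3 at 9.17. Erbb4, the receptor for NRG4, ranged from 7.15 to 8.18. Its WT values were 8.18, 7.51 and 7.33 by natural mating and 7.81, 7.47 and 7.91 by IVF, and its Atf7-/- values were 7.73, 7.52 and 7.15 by natural mating and 7.63, 7.51 and 7.64 by IVF. The natural mating and IVF livers overlapped in both genotypes. Over the comparisons that were tested, the log2 fold changes of these receptors lay between -0.23 and 0.23 (adjusted p 0.438 to 0.992). Their 95% intervals lay between -0.69 and 0.69, and those of Erbb2 between -0.28 and 0.37. Changes near the limit of 0.6 thus lie outside every Erbb2 interval but inside some intervals of Erbb3 and Erbb4. Without WT natural mating replicate 3, ATF7 loss by natural mating was -0.074 in place of 0.23 for Erbb3 (adjusted p = 0.782), -0.38 in place of -0.21 for Erbb4 (adjusted p = 0.319) and 0.12 in place of 0.14 for Erbb2 (adjusted p = 0.569). IVF in WT, with no test, was -0.26 in place of 0.041 for Erbb3 and -0.12 in place of 0.053 for Erbb4.

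Tgfa (probe set 10539692) encodes TGF-alpha, an EGFR ligand. It was highest in Atf7-/- natural mating livers. Its level was 7.99, 8.13 and 7.95 in WT by natural mating and 8.03, 8.10 and 8.06 in WT by IVF. In Atf7-/- livers it was 8.42, 8.47 and 8.55 by natural mating and 8.02, 7.94 and 7.69 by IVF. The Atf7-/- natural mating livers lay above all 9 others. For IVF in Atf7-/- the log2 fold change was -0.599 (SE 0.098, adjusted p = 0.00286), which passed the adjusted p, as 12.9% of all probe sets did, but missed the fold limit of 0.6 and so was not called. It passed both limits without Atf7-/- IVF replicate 1 (-0.67) or 2 (-0.63) and without Atf7-/- natural mating replicate 1 (-0.63) or 2 (-0.60). ATF7 loss by natural mating, which uses the same Atf7-/- natural mating arrays, gave 0.46 (adjusted p = 0.0103), again under the fold limit, where 13.7% of all probe sets passed the adjusted p, and 0.42 (adjusted p = 0.0296) without WT natural mating replicate 3. IVF in WT gave 0.044 (SE 0.098, no test) and ATF7 loss by IVF -0.18 (adjusted p = 0.83).

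The remaining ligands varied little. Egf ranged from 5.79 to 6.23 over the 12 livers and Hbegf, the heparin-binding ligand, from 6.02 to 6.41. Their probe sets had means of 6.06 and 6.22, below the median of all probe set means at 6.27, so a low level and no signal cannot be well separated for them. Btc, betacellulin, was 6.44, 6.53 and 6.23 in WT and 6.79, 6.76 and 6.52 in Atf7-/- livers by natural mating, which overlapped by 0.0097. Its difference of 0.29 (95% interval 0.048 to 0.54) was not called (adjusted p = 0.115), and was 0.21 (adjusted p = 0.284) without WT natural mating replicate 3. In IVF in Atf7-/-, Egf, Hbegf and Btc had log2 fold changes between -0.13 and -0.012 with 95% intervals inside -0.38 and 0.24. Without WT natural mating replicate 3, ATF7 loss by natural mating was -0.0094 for Egf (adjusted p = 0.977) and -0.12 for Hbegf (adjusted p = 0.553), and IVF in WT was between -0.096 and 0.011 for Egf, Hbegf, Btc, Tgfa and Erbb2, with no test.

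**Figure D2:**
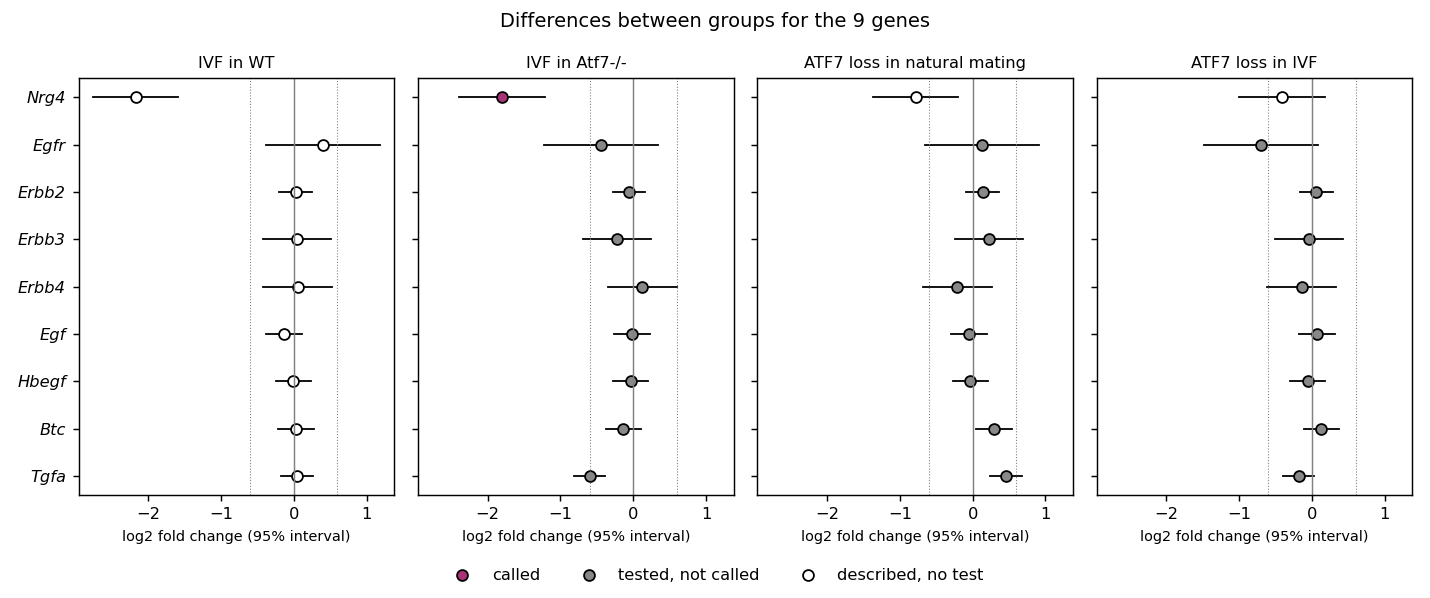
Log2 fold change (x axis) with its 95% interval for each of the 9 genes (y axis) in 4 comparisons, with dotted lines at the fold limit of 0.6. Filled purple marks a call, grey a test without a call and white a difference given without a test. Nrg4 lies at -2.17 and -1.80 in the IVF comparisons, and Tgfa at -0.599 in IVF in Atf7-/-.

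Calls required an adjusted p no higher than 0.05 together with a log2 fold change of 0.6 or more in either direction. In IVF in WT, where 4.52% of all probe sets were called, members were not tested and none is counted, because Nrg4 was chosen for its difference there. In IVF in Atf7-/- 1 of 9 members was called, Nrg4, against 6.78% of all probe sets. In ATF7 loss by natural mating limma called 0 of the 8 other members, against 7.5% of all probe sets. Of these 8, Tgfa and Btc had an unadjusted p under 0.05 there, as did 26.6% of all probe sets. In ATF7 loss by IVF limma called 0 of the 8, none had an unadjusted p under 0.05 (6.12% of all probe sets did), and only 0.00575% of all probe sets were called.

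The genes that release ErbB ligands, restrain the receptors or carry the signal onward were taken from 5 lists with 69 genes, of which 64 had a probe set of their own. The other 5 were not analysed here. In IVF in WT, 2 of 64 rose and 1 fell, 4.69% of those measured, against 4.52% of all probe sets. In IVF in Atf7-/-, 1 rose and 6 fell (10.9%), against 6.78% of all probe sets called in either direction. In ATF7 loss by natural mating 6 rose and 0 fell (9.38%), against 7.5% of all probe sets. In ATF7 loss by IVF limma called 0, with 3 at an unadjusted p under 0.05. The IVF effects in the 2 genotypes differed for 5 of the 64 (7.81%, against 6.18% of all probe sets), all lower in Atf7-/-. The list medians of log2 fold change were 0.0054, -0.075, 0.15 and -0.0052 in that order, against -0.036, 0.0057, -0.019 and 0.0073 over all probe sets. The comparisons share arrays, so the same Atf7-/- natural mating livers enter both the 6 rises and the 6 falls. Without WT natural mating replicate 3, ATF7 loss by natural mating gave 4 rises and 2 falls.

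**Figure D3:**
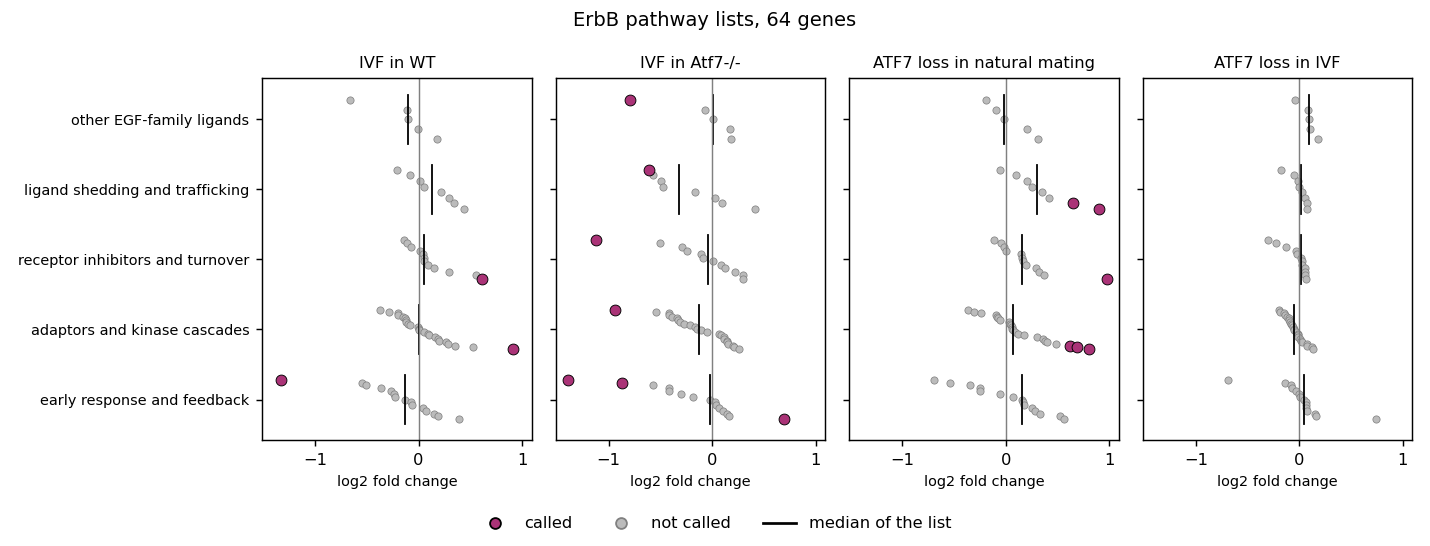
Log2 fold change (x axis) of each of the 64 measured genes in 5 ErbB pathway lists (y axis), in 4 comparisons. Purple points are called, grey points are not, and the black tick is the median of the list. The called genes lie at or below -0.61 in IVF in Atf7-/- except Spred1 at 0.70, and between 0.62 and 0.98 in ATF7 loss by natural mating.

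Errfi1, Map2k1 and Adam9 had the pattern seen for Tgfa, with all 3 Atf7-/- natural mating livers above the other 9. Errfi1 encodes MIG6, an inhibitor that binds the kinase domain of EGFR. Its level was 11.65, 12.14 and 12.16 in WT by natural mating, 12.13, 12.19 and 12.08 in WT by IVF, 12.91, 12.89 and 13.08 in Atf7-/- by natural mating and 11.88, 11.75 and 11.86 in Atf7-/- by IVF. It rose by 0.98 (SE 0.13, adjusted p = 0.000765) with ATF7 loss by natural mating and fell by 1.13 (SE 0.13, adjusted p = 0.000493) with IVF in Atf7-/-. The IVF effects in the 2 genotypes differed by -1.28 (SE 0.18, adjusted p = 0.00321). Map2k1 encodes MEK1, a kinase that carries the receptor signal onward. It lay between 7.96 and 8.26 in the 9 other livers and between 8.99 and 9.01 in the Atf7-/- natural mating livers. It rose by 0.80 with ATF7 loss by natural mating (adjusted p = 0.000192) and fell by 0.94 with IVF in Atf7-/- (adjusted p = 0.000151), with a difference between IVF effects of -0.82 (adjusted p = 0.00323).

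Adam9, a metalloprotease that can shed membrane-bound ligands, lay between 10.01 and 10.05 in Atf7-/- natural mating livers and between 8.83 and 9.60 elsewhere. It rose by 0.91 (SE 0.12, adjusted p = 0.000786) with ATF7 loss by natural mating, and its IVF effects differed by -0.83 (adjusted p = 0.0159). In IVF in Atf7-/- its log2 fold change of -0.49 was under the fold limit (adjusted p = 0.0213). Stat5b, a transcription factor that growth hormone and ErbB4 can activate, followed another pattern and was low in WT natural mating livers alone. Its level was 8.41, 8.18 and 8.26 there and between 8.89 and 9.39 in the 9 other livers. It rose by 0.91 with IVF in WT (adjusted p = 0.00175) and by 0.69 with ATF7 loss by natural mating (adjusted p = 0.00233), 2 comparisons that share the WT natural mating arrays. Its IVF effects differed by -0.77 (adjusted p = 0.0158). The calls for Errfi1, Map2k1, Adam9 and Stat5b held with every single array left out.

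**Figure D4:**
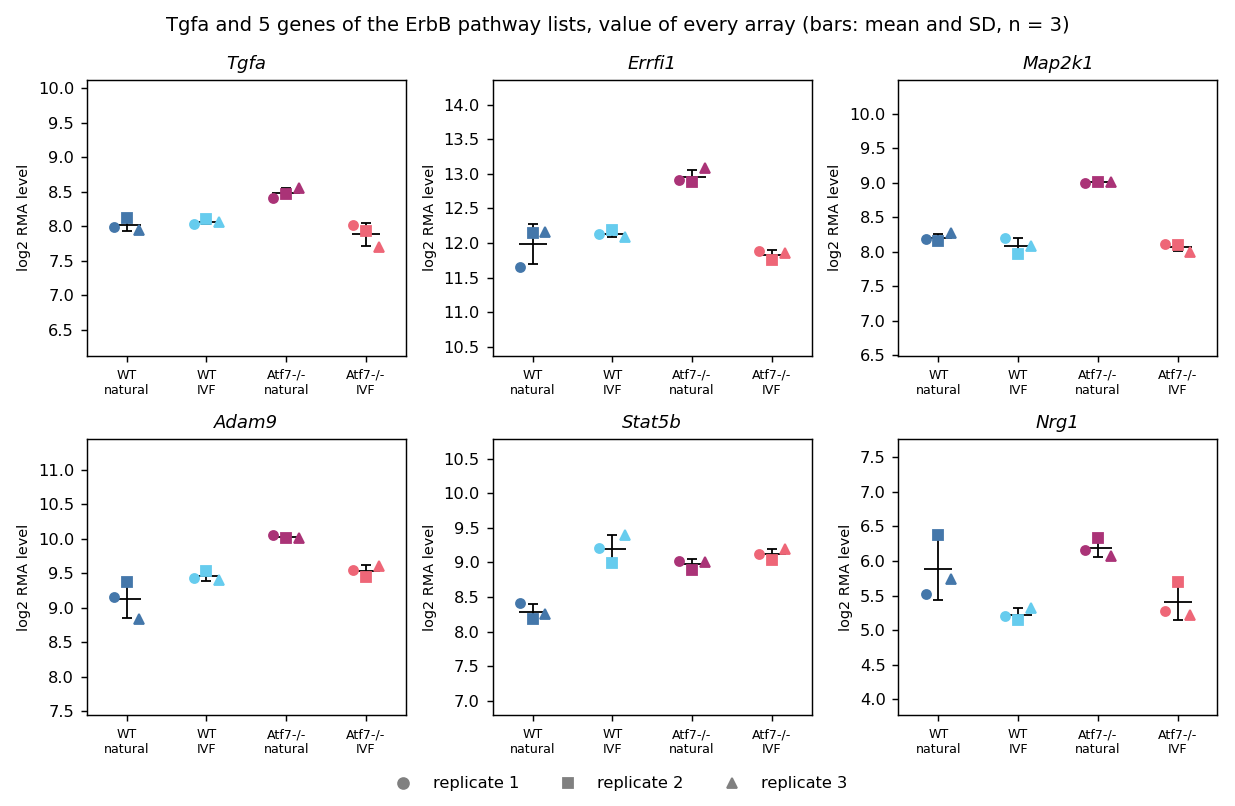
Log2 RMA level of Tgfa, of the ErbB pathway genes Errfi1, Map2k1, Adam9 and Stat5b, and of the ligand gene Nrg1 in every liver, by group. Points are single arrays, bars give the mean and SD of 3 arrays, and every panel spans 4 log2 units. Atf7-/- natural mating livers are highest for Tgfa (8.42 to 8.55), Errfi1 (12.89 to 13.08), Map2k1 (8.99 to 9.01) and Adam9 (10.01 to 10.05), and WT natural mating livers are lowest for Stat5b (8.18 to 8.41).

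Among the other ligands of the family (Nrg1, Nrg2, Nrg3, Ereg and Epgn), Nrg1 was the only gene called. Nrg1, a ligand of ErbB3 and ErbB4, was 6.16, 6.34 and 6.08 in Atf7-/- livers by natural mating and 5.28, 5.70 and 5.22 by IVF, without overlap. It fell by 0.79 (SE 0.20, adjusted p = 0.0239). This call was lost without Atf7-/- IVF replicate 1 (-0.73, adjusted p = 0.0679) or 3 (-0.70, adjusted p = 0.0933) and without Atf7-/- natural mating replicate 1 (-0.81, adjusted p = 0.0619) or 2 (-0.72, adjusted p = 0.0872). In WT, Nrg1 was 5.52, 6.38 and 5.74 by natural mating and 5.20, 5.15 and 5.32 by IVF, again without overlap, and its log2 fold change of -0.66 was not called (adjusted p = 0.0658). Most of these values lie below the median of all probe sets.

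Of the early response and feedback targets of the receptors, 15 genes, Ccnd1 and Ier3 fell and Spred1 rose in IVF in Atf7-/-, and Myc fell in IVF in WT. Ccnd1, cyclin D1, fell by 1.39 (adjusted p = 0.0183), but its call was lost without Atf7-/- IVF replicate 1 (-1.33, adjusted p = 0.0511) or 3 (-1.13, adjusted p = 0.0779) or Atf7-/- natural mating replicate 2 (-1.34, adjusted p = 0.0623) or 3 (-1.27, adjusted p = 0.0681). Ier3, an immediate early gene, fell by 0.87 (adjusted p = 0.00581) and was called with every array left out. Spred1, a feedback inhibitor of growth factor signalling, rose by 0.70 (adjusted p = 0.00953), and by 0.53 without Atf7-/- IVF replicate 2, which is under the fold limit. Myc was 8.38, 8.69 and 6.82 in WT natural mating livers and 6.57, 6.80 and 6.53 in WT IVF livers. Its log2 fold change was -1.33 (adjusted p = 0.0462), replicate 3 of natural mating again lying near the IVF livers. The Myc call was lost with 11 of the 12 arrays left out in turn (log2 fold change -1.42 to -0.97, adjusted p 0.0578 to 0.136) and stood, at -1.90, without WT natural mating replicate 3. It was also lost under median centring (adjusted p = 0.0588), under quantile normalization (adjusted p = 0.0577) and when only the 2 WT groups were fitted (adjusted p = 0.154).

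In the remaining lists, Rhbdf2, which guides the ligand-shedding protease ADAM17, fell by 0.61 in IVF in Atf7-/- (adjusted p = 0.00705). The call was lost to the fold limit without Atf7-/- IVF replicate 2 (-0.50) or Atf7-/- natural mating replicate 2 (-0.59). Bace1, a protease that cleaves neuregulin 1, rose by 0.65 with ATF7 loss by natural mating (adjusted p = 0.0113), and the call was lost without WT natural mating replicate 3 (0.48) or Atf7-/- natural mating replicate 1 (0.59), under array weights (0.54) or quantile normalization (0.59), and when only the 2 groups compared were fitted (adjusted p = 0.0551). Pdpk1, the kinase that activates AKT, rose by 0.62 in the same comparison (adjusted p = 0.00767), with the call lost without the same arrays (0.48 and 0.56) and under array weights or quantile normalization (0.57 in both). Socs4, which promotes the breakdown of EGFR, rose by 0.62 with IVF in WT (adjusted p = 0.0454), a call lost with 9 of the 12 arrays left out in turn (0.47 to 0.67, adjusted p 0.0585 to 0.129), under array weights (0.51) and when only the 2 WT groups were fitted (adjusted p = 0.079).

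Of the lipogenic genes, which NRG4 is known to restrain, 6 of 11 measured fell in Atf7-/- livers with IVF against natural mating. In that comparison 6.78% of all probe sets were called in either direction. The median log2 fold change over the list was -1.32. In IVF in WT limma called 0 of 11 (4.52% of all probe sets), with 1 at an unadjusted p under 0.05. The median there was 0.11, or 0.47 with again 0 called without WT natural mating replicate 3. Pklr rose by 1.28 with ATF7 loss by natural mating (adjusted p = 0.0255), where 7.5% of all probe sets were called. That call was lost with 5 of the 12 arrays left out in turn. The list median there was 0.73, or 1.29 with 2 called without WT natural mating replicate 3. The same Atf7-/- natural mating livers enter this comparison and the falls with IVF in Atf7-/-. In ATF7 loss by IVF, which sets the same Atf7-/- IVF livers against WT IVF, limma called 0 of 11, where 0.00575% of all probe sets were called. An unadjusted p under 0.05 was found for 4 of the 11, against 6.12% of all probe sets. In IVF in Atf7-/- the log2 fold changes were -2.72 for Acacb (adjusted p = 0.00709), -2.43 for Me1 (adjusted p = 0.0153), -2.33 for Fasn (adjusted p = 0.0415), -1.32 for Pklr, -1.10 for Scd1 and -0.75 for Mlxipl. Srebf1, a transcription factor that drives these genes, had -0.037 and was not called (adjusted p = 0.967). Fasn, fatty acid synthase, was 12.02, 12.80 and 12.39 in Atf7-/- natural mating livers and 9.37, 11.74 and 9.13 in Atf7-/- IVF livers. In WT livers it was 10.34, 10.50 and 12.38 by natural mating. Single livers, replicate 2 of Atf7-/- IVF and replicate 3 of WT natural mating, thus lay well above the others of their groups. The mean level of the list lay between 10.25 and 11.50 over WT natural mating livers and between 9.10 and 10.90 over Atf7-/- IVF livers, and its part in the Nrg4 result was not tested. With each of the 12 arrays left out in turn, the call was lost 8 times for Fasn (log2 fold change -3.16 to -1.85), 11 times for Scd1 (-1.60 to -0.84), 5 times for Pklr (-1.78 to -1.08), 2 times each for Me1 and Mlxipl and 0 times for Acacb. Without Atf7-/- IVF replicate 2 Fasn, Scd1 and Pklr were called at -3.16, -1.60 and -1.78. When only the 2 Atf7-/- groups were fitted, the calls for Fasn (adjusted p = 0.0705), Scd1 (adjusted p = 0.131), Pklr (adjusted p = 0.0608) and Me1 (adjusted p = 0.0501) were lost.

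Clock genes were called in both IVF comparisons and in ATF7 loss by natural mating. Dbp, a clock output factor, had group means of 9.94 and 7.66 in WT and of 9.44 and 7.47 in Atf7-/- livers by natural mating and IVF, and fell by 2.28 (adjusted p = 0.00349) in WT and fell by 1.96 (adjusted p = 0.00325) in Atf7-/-. Arntl, which encodes the clock activator BMAL1, had group means of 6.11 and 8.34 in WT and of 6.79 and 8.45 in Atf7-/-, and rose by 2.23 (adjusted p = 0.000535) in WT and by 1.66 (adjusted p = 0.00036) in Atf7-/-. Of 13 clock genes, 3 rose and 9 fell with IVF in WT and 2 rose and 5 fell with IVF in Atf7-/-. Over all probe sets, 4.52% were called with IVF in WT, 6.78% with IVF in Atf7-/- and 7.5% with ATF7 loss by natural mating. With ATF7 loss by natural mating 2 rose and 5 fell, Per3 by 1.77 (adjusted p = 0.000578) and Ciart by 1.66 (adjusted p = 0.0141), while Clock rose by 0.90 and Arntl by 0.68, and the Arntl call was lost when only those 2 groups were fitted (adjusted p = 0.0933) and without replicate 1 or 3 of Atf7-/- or replicate 1 or 2 of WT natural mating (adjusted p 0.067 to 0.0958). With ATF7 loss by IVF limma called 0 of 13, with 1 at an unadjusted p under 0.05. Over all probe sets 0.00575% were called there and 6.12% had such a p. The hour at which livers were taken is not given in the sources used here, and whether it differed between groups and its part in the Nrg4 result were not tested.

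Markers of other cell types bear on whole-liver levels, since fewer cells of a type and less RNA per cell cannot be told apart in bulk tissue. Adipocyte markers, which would trace fat tissue around the liver, averaged between 4.83 and 5.25 over 5 genes in all 12 arrays, under the 6.27 that was the median of all probe set means, and limma called 0 of 5 in each of the 4 comparisons (1 at an unadjusted p under 0.05 in IVF in WT and 1 in ATF7 loss by IVF). Stellate cell markers, 7 genes, had averages of 8.35 to 8.81 in the WT natural mating livers and of 8.84 to 9.20 elsewhere, and 1 rose in each of IVF in WT (Reln) and ATF7 loss by natural mating (Pdgfrb). Kupffer cell markers, 6 genes, lay on average between 8.96 and 9.74 in WT and between 8.68 and 8.93 in Atf7-/- livers of natural mating, and 1 rose and 3 fell with ATF7 loss by natural mating, while Cd5l fell in IVF in WT. Sinusoidal endothelial markers, 6 genes, had 1 rise in each of IVF in WT and ATF7 loss by natural mating (Clec4g). Blood cell markers, 6 genes measured, had 1 rise in IVF in WT and 3 in IVF in Atf7-/- and 1 fall with ATF7 loss by natural mating, and cholangiocyte markers, 5 genes measured, had 1 rise (Krt19, ATF7 loss by natural mating). Among hepatocyte markers Hnf4a fell by 0.76 in IVF in Atf7-/- and rose by 0.68 with ATF7 loss by natural mating. The part of these cell types in the member results was not tested. Over all probe sets, 4.52% were called with IVF in WT and 6.78% with IVF in Atf7-/-. With ATF7 loss that share was 7.5% by natural mating and 0.00575% by IVF.

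The genes whose levels ran most like Nrg4 over the 12 livers were taken from 10876 genes compared. The highest correlations were those of Gpt2, which makes alanine into pyruvate (r = 0.978), Lpin2, a lipin of glycerolipid synthesis (0.973), Atg4d, an autophagy protease (0.963), Dnajb12, a chaperone (0.960), and Apoa4, an apolipoprotein (0.960). After the group means were removed these were between 0.62 and 0.86. The genes were picked by their correlation over the same arrays, which raises these values too, so nothing is read from them. Apoa4 was 12.49, 12.95 and 11.44 in WT natural mating livers and 10.31, 10.38 and 10.53 in WT IVF livers, with replicate 3 lowest in natural mating as for Nrg4. The most opposed were Slc12a2, an ion transporter (-0.956), Mrpl23, a mitochondrial ribosomal protein (-0.953), and Pdgfc, a growth factor (-0.951).

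For Egfr the closest genes were Wars, a tryptophanyl-tRNA synthetase (r = 0.946), Nudt7, a peroxisomal hydrolase (0.941), and Carmil1, an actin regulator (0.933). Carmil1 was 6.39, 6.88 and 9.24 in WT natural mating livers, with replicate 3 far above the others as for Egfr. Without that liver, an alternative chosen after seeing the data, the correlations were 0.920, 0.903 and 0.915, and those of the 5 genes most like Nrg4 lay between 0.959 and 0.977. The arrays share their group and their normalization, and these correlations are descriptions of 12 livers.

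**Figure D5:**
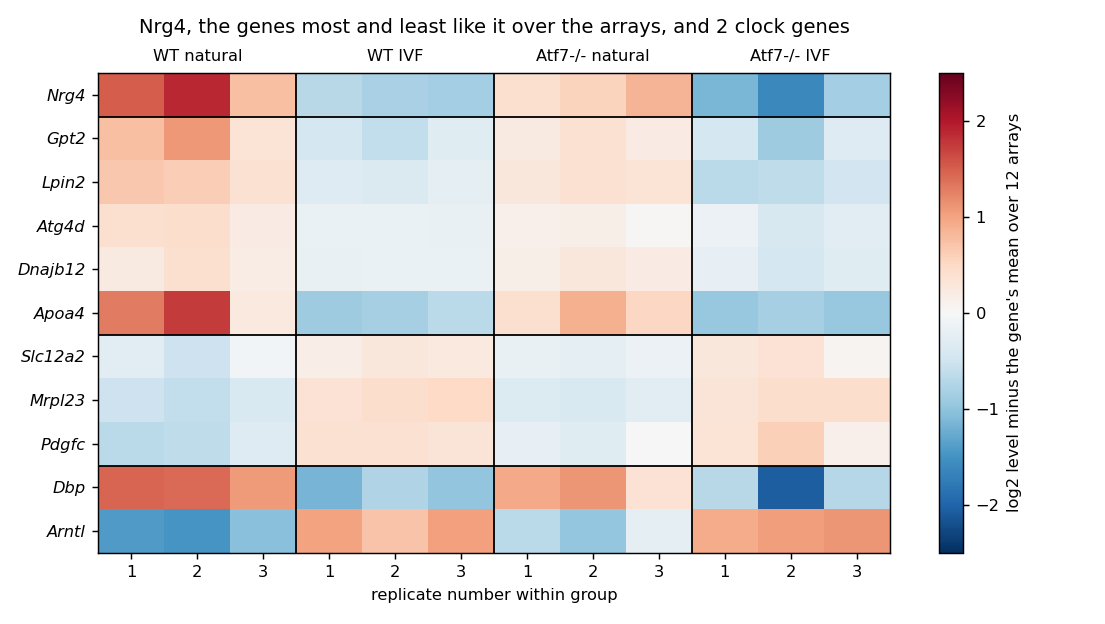
Log2 level minus the gene's mean over the 12 arrays (colour) for Nrg4, the 5 genes most like it, the 3 most opposed to it and the clock genes Dbp and Arntl (rows), in every liver (columns, by group and replicate number). Red is above and blue below the mean. The natural mating livers are red and the IVF livers blue for Nrg4, Gpt2, Lpin2 and Dbp, and the reverse holds for Arntl.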

How the data were processed

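Total RNA was taken from 12 livers and hybridised to Affymetrix Mouse Gene 1.0 ST arrays. For normalization the authors used RMA as implemented in affy (versions, annotation and build not given in the sources used here), and the deposited table holds log2 values of 34760 probe sets for 12 arrays. Platform annotation names 1 gene for 21640 probe sets, several for 1321 and none for 11799. The values were used as deposited. The number of arrays limits the precision; depth does not apply.

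Groups came from the labels. A linear model was fitted to all probe sets (limma 3.58.1, R 4.3.3, means of 4 groups, empirical Bayes, two-sided), and p-values were adjusted by Benjamini-Hochberg over all of them. Calls used the limits in the study's methods, 0.05 for the adjusted p and 0.6 for the log2 fold change in either direction. Any adjusted p in the text is from this limma fit. The fit was tested on simulated data. For pathway and marker genes the brightest probe set was used. Tables were made with Python 3.11.15, pandas 2.3.3, and figures with matplotlib 3.10.9.

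The members, the gene lists and their tests were chosen with earlier results of these data known. Nrg4 was tested only in IVF in Atf7-/-, which shares no array with IVF in WT. Its SE there still uses the WT arrays, through the fit to all 4 groups. No member was tested in IVF in WT or in the difference of IVF effects. Genes named were the members, Atf7, up to 4 called genes per list and comparison with the largest change, Arntl and Dbp, and the 5 genes most and 3 least correlated with Nrg4 and 3 most with Egfr, over probe sets of 1 gene at or above the median level. The marker genes and the lipogenic genes with values were named after their values were seen. The alternatives comprised array weights, quantile normalization, median centring, trend and robust variances, dim probe sets left out, probe sets of 1 gene only, only the groups compared, no fold limit, the replicate block and each array left out. Replicate numbers were not taken as pairs in the main fit. RefSeq proteins were not used here.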

Additional observations from a re-analysis of the deposited data

Results flagged for a closer look

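For Egfr and Tgfa every WT IVF liver lay above the natural mating mean of its genotype and every Atf7-/- IVF liver lay below it. The WT IVF livers still lay within the range of the WT natural mating livers, so no direction is read in WT. The ranges were 11.40 to 11.56 within 10.30 to 12.16 for Egfr and 8.03 to 8.10 within 7.95 to 8.13 for Tgfa. How many of all probe sets have this pattern was not counted. For Egfr the effect in Atf7-/- minus that in WT was -0.84 (SE 0.50), and for Tgfa it was -0.64 (SE 0.14). These differences between genotypes were not tested. The Tgfa livers of WT IVF lay only 0.0076 to 0.084 above the WT natural mating mean, and the Egfr value was -1.37 without WT natural mating replicate 3 and -0.44 without replicate 1.

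The IVF effects differed between the genotypes in limma's test of the difference for 6 genes of the pathway and lipogenic lists, lower in Atf7-/- in each. In the same test 6.18% of all probe sets were called, and the pathway count is set beside that share above. The differences were -1.28 for Errfi1 (adjusted p = 0.00321), -0.83 for Adam9 (adjusted p = 0.0159), -0.82 for Map2k1 (adjusted p = 0.00323), -0.77 for Stat5b (adjusted p = 0.0158), -0.67 for Pdpk1 (adjusted p = 0.0452) and -1.9997 for Pklr (adjusted p = 0.0277). Those of Errfi1, Adam9, Map2k1 and Stat5b were called with every array left out in turn. That of Pdpk1 was lost in 9 of 12 such fits and that of Pklr in 10 of 12.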

How the results depend on the processing

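Nrg4 in IVF in Atf7-/- was called under every alternative run, with adjusted p between 0.000324 and 0.00915. The number of members called in IVF in Atf7-/- was 2, with Tgfa, under array weights, median centring and no fold limit, and 1 to 2 with arrays left out. In IVF in WT, where members were not tested, the log2 fold change of Egfr was 0.40 with all arrays and 0.93 without WT natural mating replicate 3. In ATF7 loss by natural mating the number called of the 8 members other than Nrg4 was 1 with no fold limit (Tgfa) and 0 to 1 with arrays left out, with 1 (Egfr) without WT natural mating replicate 3. Egfr in that comparison was -0.27 without WT natural mating replicate 1, -0.0055 without replicate 2 and 0.66 without replicate 3. With no fold limit, pathway genes called numbered 6 in IVF in WT, 15 in IVF in Atf7-/- and 11 in ATF7 loss by natural mating. Of all probe sets, 12.9% passed the adjusted p alone in IVF in Atf7-/- and 13.7% in ATF7 loss by natural mating. That share is not given here for IVF in WT. Pathway genes called numbered 1 in IVF in WT when only those groups were fitted, and 8 for the difference of IVF effects under median centring. With arrays left out they ranged from 1 to 2, from 4 to 7 (4 without Atf7-/- natural mating replicate 2), from 5 to 6 and, for the difference, from 4 to 5. The cause of these shifts was not tested. Livers with the same replicate number had deviations from their group means that correlated at -0.12 to 0.24 (18 pairs, 3 over 0.1). Other pairs between groups lay between -0.20 and 0.19. Between the genotypes, same-number livers had r of 0.032 to 0.18 by natural mating and 0.041 to 0.24 by IVF. These pairs hold all 3 values over 0.1. Whether the numbers pair the livers is therefore not settled by these values. With the replicate block, Nrg4 in IVF in Atf7-/- kept its value of -1.80 with an adjusted p of 0.00565, and the calls for Socs4 (adjusted p = 0.0567), Pdpk1 (difference of IVF effects, adjusted p = 0.0679) and Scd1 (adjusted p = 0.0696) were lost.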
